A study of Mus musculus with 6 samples.

Results

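Collagen genes were examined in the livers of mice given repeated injections of P-407, a poloxamer, which is a detergent-like polymer used to make rodents hyperlipidemic. They were chosen by name, as every array feature whose annotated mouse symbol is Col, a number, the letter a and a number. The rule found 40 collagen genes among the 17347 genes that carry a feature of their own on either array type. All 40 were on the oligonucleotide array, with 41 features, and 19 of them were also on the cDNA array, with 24 features. By class, 10 were fibrillar, 8 belonged to basement membranes and 22 were of other kinds. Col6a3, Col6a5, Col27a1 and Col28a1 were matched by no feature and were not analysed here, and 3 further cDNA features whose annotation lists a second symbol beside a collagen were not used.

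The study set 12 treated female C57BL/6 mice against 4 saline-injected ones, all aged 7 weeks at the start and fed standard chow with 4.4% fat. Treated mice received 0.5 g/kg P-407 into the peritoneal cavity every 3 days, controls received saline on the same schedule, and livers were taken on day 96. The treated livers gave 3 RNA pools and the control livers 1, so the spread between single mice is not visible. Each treated pool (Cy5) was hybridised with the control pool (Cy3) on 1 oligonucleotide array, from 0.5 ug of amplified RNA, and on 1 cDNA array, from 10 ug of RNA labelled directly. The values are the authors' log ratios, read here as log2 of treated over control, and positive values stand for higher RNA after P-407. The labels do not state the log base, and with natural logs the folds given here would be too small. No array had the dyes exchanged, so dye and treatment effects on a gene cannot be told apart. The files hold no signal intensities, so the levels of collagen RNA, and the identity of the tissue, could not be read from them.

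Collagens are proteins of 3 chains wound into a triple helix, and they form the scaffold around cells. Fibrillar collagens assemble into banded fibres, and types I and III are the fibres of the portal tracts and of liver scars. Type IV forms the mesh of basement membranes. Other collagens sit on the surface of fibrils, build beaded or hexagonal networks, or span the cell membrane. In liver most fibrillar collagen comes from stellate cells and portal fibroblasts, and its deposition by activated stellate cells is the hallmark of fibrosis.

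The first question was which collagen genes differed between treated and control livers on the oligonucleotide array, where all 40 had a value in every pool. Of these, 14 were higher in the treated pools, 2 were lower and 24 did not pass the test (limma, adjusted p under 0.05 over all 16871 genes measured). Among all genes, 43.4% were called, 22.0% higher and 21.4% lower, so calls were common on this array, and the collagens' share of 35.0% higher and 5.0% lower is read against that. The median log2 ratio was 0.095 over the collagens and 0.00 over all genes. The changes were small, between 1.09-fold and 1.80-fold for the 14 higher genes, with 2 of them at 1.5-fold or more and none at 2-fold or more. All 3 pools lay above 0 for 24 collagens, against 35.1% of all genes, and all 3 lay below 0 for 9, against 34.1%. Without pool 1, 9 collagens were higher, without pool 2, 11, and without pool 3, 12. Among all genes the same fits called 1996, 2536 and 3180 higher, against 3710 with all pools. In each of these fits Col1a1, Col1a2, Col2a1, Col3a1, Col5a3, Col4a2, Col14a1, Col16a1 and Col22a1 were higher and Col23a1 was lower. Tested without the prior that limma shares across genes, 0 collagens and 40 genes in all were called. With the prior, 22 of the 40 collagens and 8868 of the 16871 genes had an unadjusted limma p under 0.05.

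**Figure D1:**
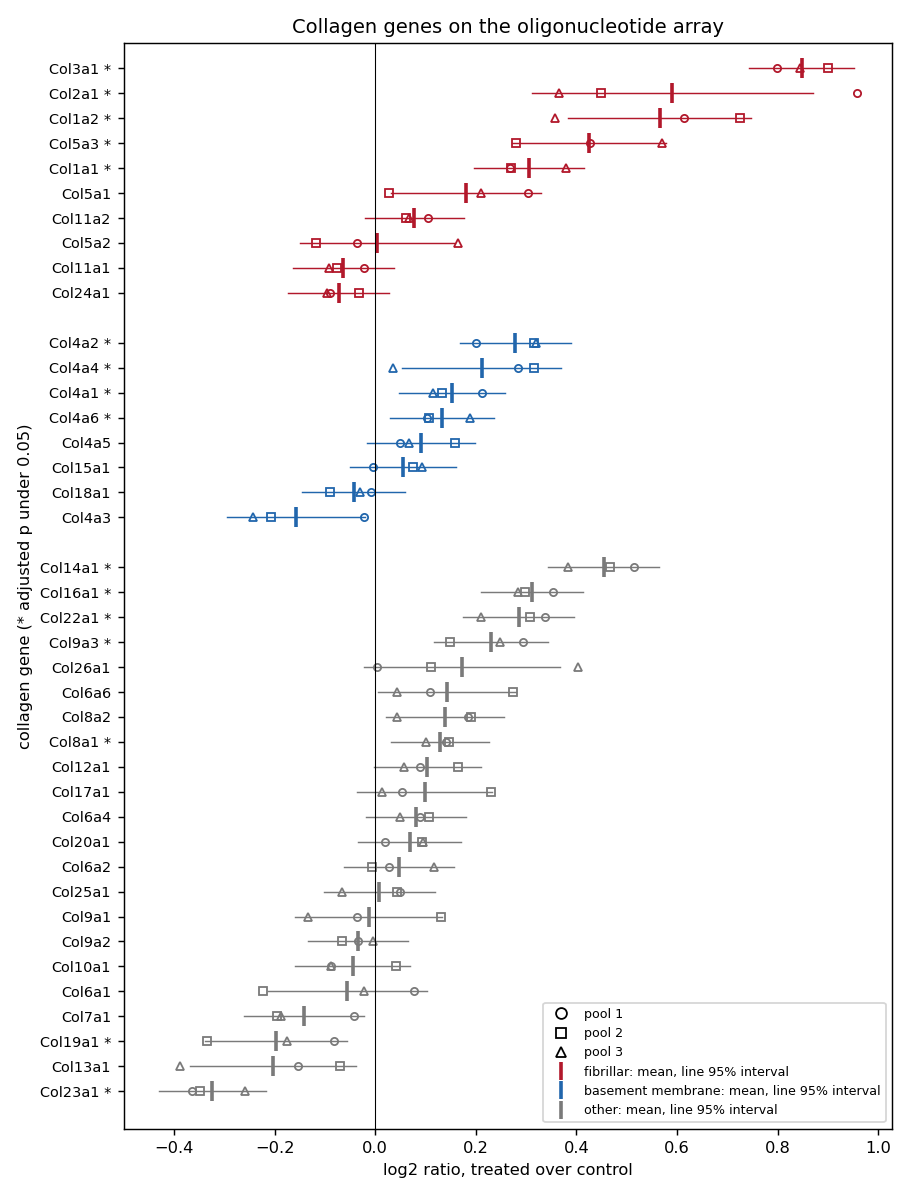
Log2 ratios of the 40 collagen genes on the oligonucleotide array, by class. Open symbols are the 3 pools, the vertical tick is their mean, the line its 95% interval from limma, and a star marks an adjusted p under 0.05. Fibrillar genes reach 0.85 (Col3a1), basement membrane genes 0.28 (Col4a2) and the other collagens run from 0.45 (Col14a1) to -0.32 (Col23a1).

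Among the 10 fibrillar genes, 5 rose (50%, beside 22.0% of all genes) and 0 fell (beside 21.4%). The increases lay in chains of types I, II, III and V. Col3a1, the single chain of type III collagen and of the fine reticular fibres of liver, had log2 ratios of 0.80, 0.90 and 0.84 in pools 1, 2 and 3. It was 1.80-fold higher (0.85 ± 0.05, SD, n = 3 pools, limma adjusted p = 2.66e-04) and ranked 167 from the top of all 16871 genes. Its pools were the closest together of the 5 genes, and all of them lay above every pool of the other fibrillar genes except pool 1 of Col2a1.

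Type I collagen, the main fibre of scar, is built from chains of Col1a1 and Col1a2. Col1a2 stood at 0.61, 0.72 and 0.36 in the 3 pools, a mean of 0.57 ± 0.19 (1.48-fold, limma adjusted p = 0.00287). Col1a1 stood at 0.27, 0.27 and 0.38, a mean of 0.31 ± 0.06 (1.24-fold, limma adjusted p = 0.00391). The pools of both genes were all above 0, and in pools 1 and 2 Col1a2 had the larger ratio, while in pool 3 the genes were about level. Ratios on different probes are not levels, so they do not say which chain was more abundant.

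Type V collagen starts and limits the growth of type I fibrils, and its 3 chain genes did not have the same values. Col5a3 was higher, at 0.43, 0.28 and 0.57 (mean 0.43 ± 0.15, 1.34-fold, limma adjusted p = 0.00402). Col5a1 stood at 0.30, 0.03 and 0.21 and did not pass the test (adjusted p = 0.0567), although it did without pool 2 (adjusted p = 0.0297). Col5a2 stood at -0.04, -0.12 and 0.16, with a mean of 0.00 and a 95% interval from -0.15 to 0.16. Col5a2 is the gene next to Col3a1 on chromosome 1, and the log2 ratio of Col3a1 exceeded that of Col5a2 by 0.84 ± 0.17 over the 3 pools.

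Col2a1, the chain of cartilage type II collagen, was also higher, but its pools were far apart, at 0.96, 0.45 and 0.37. The mean was 0.59 ± 0.32 (1.51-fold, limma adjusted p = 0.00949), with pool 1 the highest value of any collagen in any pool of this array. The other cartilage-type and late-described fibrillar genes stayed close to 0. Col11a2 had a mean of 0.08, Col11a1 of -0.06 and Col24a1 of -0.07, and the smallest adjusted p of these was 0.164.

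The promoters of Col1a2 and Col3a1 are shown because these genes lead the type I and III increases. The windows run from 250 bases before to 50 after the annotated start (RefSeq, GRCm38.p6), at chr6:4505368-4505667 for Col1a2 and chr1:45311288-45311587 for Col3a1, both on the plus strand. Capitals mark matches, on either strand, to the CCAAT box, to the GC box GGGCGG and to the TATA box motif TATAAA.
Col1a2: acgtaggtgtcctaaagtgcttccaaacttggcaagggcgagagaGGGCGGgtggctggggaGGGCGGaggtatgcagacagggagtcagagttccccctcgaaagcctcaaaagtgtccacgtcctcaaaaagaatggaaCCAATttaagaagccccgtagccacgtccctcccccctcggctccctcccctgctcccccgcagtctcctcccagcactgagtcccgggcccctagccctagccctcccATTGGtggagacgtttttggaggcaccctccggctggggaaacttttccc
Col3a1: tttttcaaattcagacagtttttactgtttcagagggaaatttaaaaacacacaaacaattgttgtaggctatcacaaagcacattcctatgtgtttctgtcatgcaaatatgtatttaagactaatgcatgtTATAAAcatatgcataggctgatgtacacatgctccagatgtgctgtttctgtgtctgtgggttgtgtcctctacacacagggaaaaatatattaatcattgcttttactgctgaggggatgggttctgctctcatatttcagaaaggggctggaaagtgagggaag
The Col1a2 window held CCAAT 109 bases before the start and, on the other strand, at the start itself, with the GC box at 205 and 188 bases before it. In the Col3a1 window the TATA motif began 117 bases before the start, and these letters of the other motifs were not in it. Of the 34 windows of 31 collagen genes in the table, 38.2% held the CCAAT box, 61.8% the GC box and 14.7% the TATA motif. Over all 32851 windows of the same length the shares were 37.4%, 35.7% and 13.6%. The GC box was in 5 of 7 fibrillar, 5 of 8 basement membrane and 11 of 19 other windows. A match of letters is not evidence of binding.

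Of the 8 basement membrane genes, 4 were called higher (50%, beside 22.0% of all genes) and 0 lower (beside 21.4%). All 4 were of type IV, with 1 of them at 1.2-fold or more. The changes were smaller than those of the leading fibrillar genes. Col4a2, which with Col4a1 makes the type IV mesh found in almost every basement membrane, had log2 ratios of 0.20, 0.32 and 0.32 (mean 0.28 ± 0.07, 1.21-fold, limma adjusted p = 0.00539). Col4a1 stood at 0.21, 0.13 and 0.11 (0.15 ± 0.05, 1.11-fold, adjusted p = 0.0318). Both genes were above 0 in every pool, and Col4a2 was the higher of them in pools 2 and 3.

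The other type IV genes code for chains of specialised membranes such as those of the kidney glomerulus. Col4a4 stood at 0.28, 0.32 and 0.04 (0.21 ± 0.15, limma adjusted p = 0.0411) and Col4a6 at 0.10, 0.11 and 0.19 (0.13 ± 0.05, adjusted p = 0.0478). Col4a5 had a mean of 0.09 ± 0.06 and Col4a3 of -0.16 ± 0.12, with adjusted p of 0.141 and 0.0647. Col4a4 and Col4a3 are neighbours on chromosome 1, and the ratio of Col4a4 was above that of Col4a3 in each pool, by 0.37 ± 0.13. Other neighbouring pairs differed less, Col9a1 from Col19a1 by 0.18 ± 0.24 and Col6a2 from Col6a1 by 0.10 ± 0.14. Col4a6 differed from Col4a5 by 0.04 ± 0.09 and Col4a1 from Col4a2 by -0.13 ± 0.12. Fewer of the basement membrane calls were made with a pool left out, as among all genes. Without pool 1 or without pool 2, Col4a2 was the 1 basement membrane gene called higher, and without pool 3, Col4a2 and Col4a4.

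Col15a1 and Col18a1 code for collagens that carry sugar side chains and lie at the outer face of basement membranes, and Col18a1 is made by hepatocytes. Neither passed the test. Col15a1 stood at -0.004, 0.08 and 0.09, with a 95% interval from -0.05 to 0.16. Col18a1 stood at -0.01, -0.09 and -0.03, below 0 in every pool, with an interval from -0.14 to 0.06.

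Col4a1 and Col4a2 lie head to head on chromosome 8 and their promoters overlap, which is why both are shown. Their annotated starts are 21 bases apart (RefSeq, GRCm38.p6). The Col4a1 window is chr8:11312777-11313076 on the minus strand and the Col4a2 window is chr8:11312555-11312854 on the plus strand, each printed in the direction of its gene. Capitals mark the 78 bases that both windows cover, read from opposite strands.
Col4a1: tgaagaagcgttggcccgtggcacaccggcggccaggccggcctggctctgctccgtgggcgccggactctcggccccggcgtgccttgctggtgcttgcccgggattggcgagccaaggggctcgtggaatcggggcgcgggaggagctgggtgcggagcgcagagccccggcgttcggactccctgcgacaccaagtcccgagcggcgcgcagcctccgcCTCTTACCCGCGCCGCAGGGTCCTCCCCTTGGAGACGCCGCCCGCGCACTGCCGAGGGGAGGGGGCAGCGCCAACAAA
Col4a2: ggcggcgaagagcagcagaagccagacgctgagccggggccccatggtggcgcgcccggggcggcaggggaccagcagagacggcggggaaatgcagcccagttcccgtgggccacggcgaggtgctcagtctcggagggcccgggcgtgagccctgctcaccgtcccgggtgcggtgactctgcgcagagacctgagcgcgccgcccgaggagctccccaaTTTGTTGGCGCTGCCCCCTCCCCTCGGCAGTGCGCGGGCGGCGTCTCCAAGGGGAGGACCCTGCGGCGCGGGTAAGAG
The shared stretch holds the GC box, on the opposite strand in the Col4a1 window. The CCAAT box was found 32 bases before the Col4a2 start and, on the opposite strand, 145 bases before the Col4a1 start.

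The 22 other collagens held 5 higher (22.7%, near the 22.0% of all genes) and 2 lower genes (9.09%), and 4 of the 5 higher ones code for collagens that attach to fibrils. Col14a1, whose product binds the surface of type I fibrils together with decorin, stood at 0.51, 0.47 and 0.38 (0.45 ± 0.07, 1.37-fold, limma adjusted p = 0.00129). It was read by 2 oligonucleotide features, with means of 0.62 and 0.29, both above 0 in every pool. Col16a1, a minor collagen of connective tissue, stood at 0.35, 0.30 and 0.28 (0.31 ± 0.04, adjusted p = 0.00291).

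Col22a1, a collagen of tissue junctions such as muscle and tendon, stood at 0.34, 0.31 and 0.21 (0.29 ± 0.07, limma adjusted p = 0.00497). Col9a3, a chain of the cartilage collagen of type IX, stood at 0.29, 0.15 and 0.25 (0.23 ± 0.07, adjusted p = 0.0109, and not called without pool 1). The other chains of type IX, Col9a1 and Col9a2, had means of -0.01 and -0.03. The lower fibril-associated gene was Col19a1, at -0.08, -0.33 and -0.17 (-0.20 ± 0.13, adjusted p = 0.0367), and it was not called without pool 2 or without pool 3. Col12a1 (0.10) and Col20a1 (0.07) completed the 9 genes of this group and did not pass the test.

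Type VI collagen makes beaded filaments around cells, and none of its 4 measured genes was called. Col6a1 stood at 0.08, -0.22 and -0.02 and Col6a2 at 0.03, -0.01 and 0.12, so both crossed 0. The 95% intervals were -0.21 to 0.10 for Col6a1 and -0.06 to 0.16 for Col6a2. Col6a4 and Col6a6 had means of 0.08 and 0.14, with adjusted p of 0.152 and 0.0859.

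Among the collagens that span the cell membrane, Col23a1 was the lowest collagen of the array, at -0.36, -0.35 and -0.26 (-0.32 ± 0.06, 1.25-fold lower, limma adjusted p = 0.00313). Col13a1, another membrane collagen, had a mean of -0.20 ± 0.16 (adjusted p = 0.0531), while Col17a1 of hemidesmosomes stood at 0.10 and Col25a1 of neurons at 0.01. Col8a1, a short-chain collagen of vessel walls, was called higher at 0.14, 0.15 and 0.10 (0.13 ± 0.02, adjusted p = 0.044), but not with any 1 pool left out. Its partner Col8a2 had a mean of 0.14 ± 0.08 (adjusted p = 0.0595, and 0.0355 without pool 3), and the related Col10a1 a mean of -0.04. Col7a1 of anchoring fibrils and Col26a1 had means of -0.14 and 0.17, with adjusted p of 0.0588 and 0.128.

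The classes were then set side by side within each pool. The mean log2 ratio of the fibrillar genes was 0.29 ± 0.04 (SD of 3 pool means), that of the basement membrane genes 0.09 ± 0.02 and that of the others 0.06 ± 0.02, against 0.01 over all genes. The fibrillar mean exceeded the basement membrane mean by 0.23, 0.15 and 0.21 in pools 1, 2 and 3, an average of 0.20 ± 0.04. It exceeded the mean of the other collagens by 0.23 ± 0.04, while basement membrane and other collagens were 0.03 apart. The order of the fibrillar mean above both others held in every pool of this array. It did not on the cDNA array, where 4 fibrillar genes minus 4 basement membrane genes gave -0.18, 0.13 and 0.26, a mean of 0.07 ± 0.23.

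Within the classes the members spread more widely than the class means. The 6 chains of types I, III and V averaged 0.39 ± 0.04, and the 4 other fibrillar genes 0.13 ± 0.09. Type IV averaged 0.12 ± 0.03 and the 2 collagens with sugar side chains 0.01 ± 0.02. Types I, III and V thus stood above type IV by 0.26, 0.21 and 0.34 in the 3 pools of the oligonucleotide array. On the cDNA array, with 3 genes on each side, this difference was -0.64, -0.09 and 0.29, a mean of -0.15 ± 0.47. The 9 fibril-associated genes averaged 0.13 ± 0.03 on the oligonucleotide array, type VI 0.05 ± 0.02 and the 4 membrane-spanning genes -0.11 ± 0.07. All pools share 1 control pool and the members of a class are not replicates of it, so these differences are given as values, with no test.

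**Figure D2:**
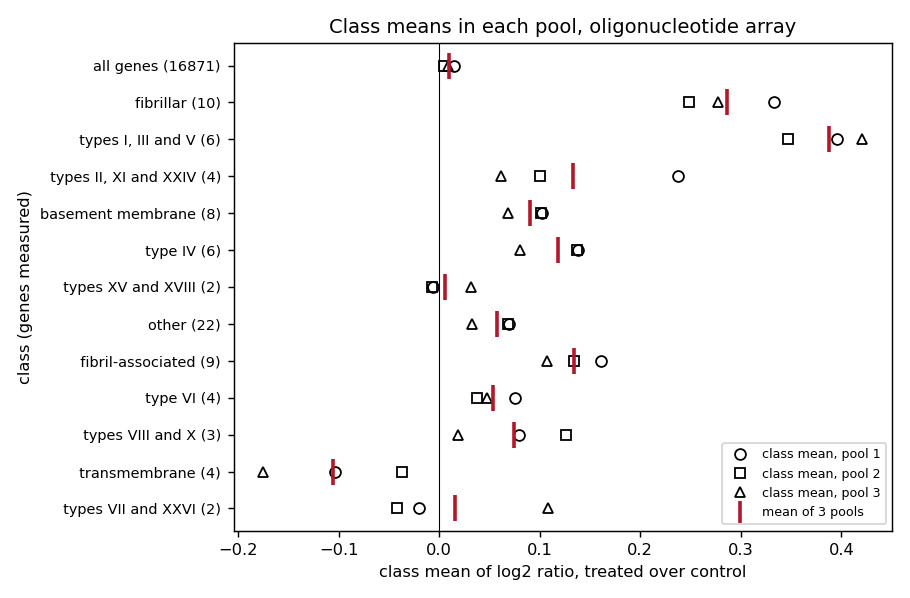
Mean log2 ratio of each collagen class in pools 1, 2 and 3 (open symbols) on the oligonucleotide array, with the mean of the 3 pools as a red tick and the number of genes in parentheses. The fibrillar means (0.25 to 0.33) lie above the basement membrane means (0.07 to 0.10) in every pool, and all genes lie near 0.

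The cDNA array offered a second reading of the same RNA for 13 collagen genes with a value in all 3 pools. On this array limma called 0 of the 13, and 0 of 5011 genes in all (0% as background), while 5 collagens and 1518 genes had an unadjusted p under 0.05. Without the shared prior, 0 collagens and 1 gene were called. The pools were farther apart here, with a median SD of 0.45 over the collagens, against 0.07 on the oligonucleotide array. All 3 pools lay above 0 for 5 of the 13 collagens (38.5%, beside 31.1% of all genes) and below 0 for 2 (beside 26.3% of all genes). All 13 genes had a mean of the same sign on both arrays, 10 above 0 and 3 below, and 11 had the larger absolute value on the cDNA array. The share of all genes with the same sign on both arrays was not computed. On the oligonucleotide array the means of Col5a2 (0.00) and Col9a1 (-0.01) lay so near 0 that their signs say little. Both arrays share the RNA of the pools and the control, so the cDNA array is a repeated measurement and not independent support.

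For the fibrillar genes, Col1a1 stood at 0.50, 0.84 and 0.73 on the cDNA array (0.69 ± 0.17, limma adjusted p = 0.103) and Col1a2 at 1.02, 0.68 and 2.18 (1.29 ± 0.79, adjusted p = 0.129). Col2a1 stood at 0.88, 0.63 and 0.00, with pool 1 highest on both arrays. Col5a2 stood at -0.08, 0.20 and 0.17, with a mean of 0.10. That mean was 0.48 with values of 0 kept, when a second feature of the gene entered. No value of Col3a1 entered from this array.

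For the basement membrane genes, Col4a2 stood at 0.80, 0.50 and 0.72 (0.67 ± 0.16, limma adjusted p = 0.102), all above 0 and close together. Col4a1 stood at 2.76, 0.73 and 0.38 (adjusted p = 0.205), above 0 in every pool but with pool 1 far from the others. Col4a5 stood at -0.20, 0.75 and 1.11, and the 2 features of Col18a1 averaged -0.205 with every pool below 0. Of the 7 genes that were higher on the oligonucleotide array and measured here, all had a mean above 0 and 5 were above 0 in each pool.

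Among the others, Col14a1 stood at 1.48, 1.36 and 0.54 (1.13 ± 0.51, limma adjusted p = 0.108) and Col22a1 at 2.85, 2.91 and -0.04 (1.91 ± 1.69, adjusted p = 0.179), so pool 3 of Col22a1 lay apart from the other pools. Col9a1 stood at -2.17, 0.30 and -0.56 and Col12a1 at -0.01, -0.11 and 0.40. Col6a1 was below 0 in every pool, at -1.65, -1.09 and -0.90 (-1.21 ± 0.39, adjusted p = 0.0991).

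Col6a1 was also the 1 collagen whose ratio differed between the array types, by 1.16 (oligonucleotide minus cDNA, 95% interval 0.61 to 1.71, limma adjusted p = 0.0372), where 11.4% of 4702 genes did, 6.25% with the higher ratio on the oligonucleotide array and 5.17% with the lower. With the pool as a block, and without pool 1 or without pool 2, 0 collagens and 0 genes in all passed this test. Without pool 3 there were 3 collagens, namely Col6a1, Col14a1 and Col22a1, beside 22.3% of 4837 genes. The 2 arrays of a pool read the same RNA, so the pool numbers pair them by design.

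Averaging the 2 arrays of each pool gave 0 calls among the 13 collagens, with 5.10% of 4702 genes called, 2.47% higher and 2.64% lower. An unadjusted limma p under 0.05 was found for 7 of the 13 collagens and for 1705 of the 4702 genes. All 3 averaged pools lay above 0 for 8 collagens (61.5%, beside 32.8% of all genes) and below 0 for 2 (beside 28.8% of all genes). The closest were Col1a2 (0.93 ± 0.30, limma adjusted p = 0.051), Col6a1 (-0.63 ± 0.16, 0.0513), Col4a2 (0.48 ± 0.06, 0.0528) and Col1a1 (0.50 ± 0.10, 0.0536). With all 6 arrays kept and the pool as a block at an estimated correlation of 0.0542, 5 were higher (Col1a1, Col1a2, Col2a1, Col4a2 and Col14a1) and 1 lower (Col6a1), beside 13.7% and 13.3% of all genes. At that correlation the fit counts the 2 arrays of a pool almost as separate replicates, although both read the same RNA. Without pool 3 the averaged arrays gave 3 higher (Col1a2, Col14a1 and Col22a1) and 1 lower (Col6a1), beside 4.86% and 2.85% of 4837 genes.

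**Figure D3:**
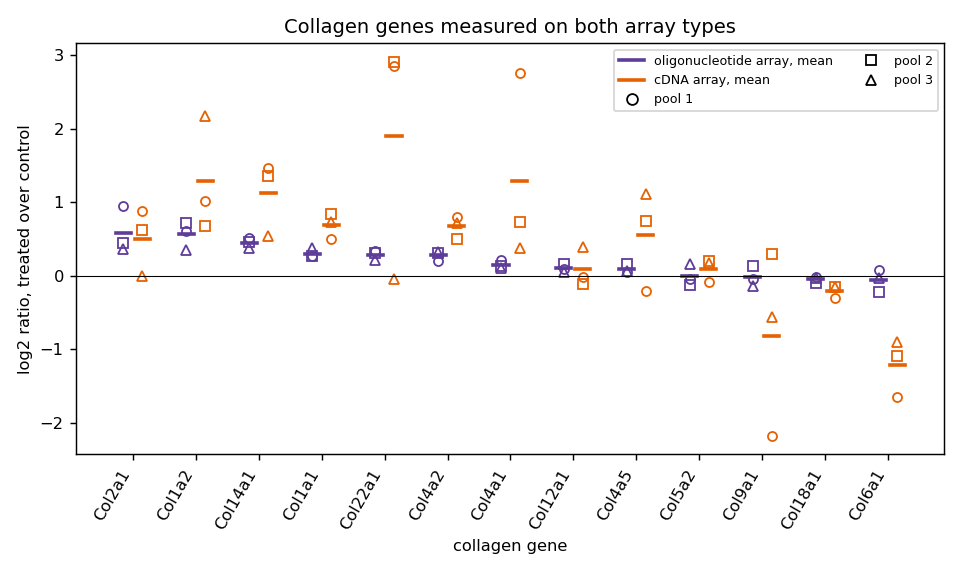
Log2 ratios of the 13 collagen genes measured in all 3 pools on both array types, ordered by the oligonucleotide mean. Symbols are pools and bars are means, purple for the oligonucleotide and orange for the cDNA array. The cDNA pools are more spread out, as for Col22a1 (2.85, 2.91 and -0.04), and Col6a1 is below 0 in every cDNA pool and near 0 on the oligonucleotide array.

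The genes that make, modify and remove collagen were read on the oligonucleotide array in lists written by function, against a background of 22.0% of all genes called higher and 21.4% lower. Proteins that fold and modify collagen chains in the endoplasmic reticulum had 4 of 20 higher and 5 lower, shares near those of all genes, and a median of -0.04. Serpinh1, the collagen-specific chaperone, was higher at 0.88, 0.48 and 0.38 (0.58 ± 0.26, limma adjusted p = 0.00563). The general folding proteins Hspa5 (-0.69 ± 0.08) and P4hb (-0.36 ± 0.04), the latter a subunit of prolyl hydroxylase, were lower, and so was the folding enzyme gene Fkbp14 (-0.42 ± 0.13). Crtap, Colgalt1 and Plod3 were the other higher genes, named like those that follow after their values were seen, and Pdia3 and P3h2 the other lower ones. Without pool 1, Serpinh1 was the 1 gene of this list still higher, and without pool 2, 3 were lower.

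Of 12 genes for cleavage and cross-linking of procollagen, 2 were higher and 5 lower, with a median of -0.06. Pcolce, which speeds the removal of the procollagen tail, stood at 0.60, 0.59 and 0.58 (0.59 ± 0.01, limma adjusted p = 5.14e-04). The cross-linking enzyme gene Loxl4 (-0.40 ± 0.10) and the protease genes Adamts3 (-0.26 ± 0.04) and Tll2 (-0.27 ± 0.11) were lower. Loxl1 was the other higher gene, and Lox and Tll1 the other lower ones. Of 12 fibril-binding proteins, 4 were higher and 2 lower, and Sparc (0.72 ± 0.17), decorin (Dcn, 0.54 ± 0.14) and lumican (Lum, 0.41 ± 0.05) were among the higher, while Kera was lower (-0.54 ± 0.09). Thbs2 was the other higher and Fn1 the other lower gene. On the cDNA array, where none was called, Sparc and Lum had means of 0.41 and 1.43, Dcn of -0.04 and Thbs2 of -0.68, with all 3 pools of Thbs2 below 0. Pcolce had a cDNA mean of -0.11. With any 1 pool left out, Kera was the 1 gene of this list still lower.

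Genes for the breakdown of collagen and its control had 9 of 18 higher and 2 lower (Fap and Mrc2), with a median of 0.20. The lysosomal proteases Ctss (2.03 ± 0.25) and Ctsb (1.22 ± 0.11), which macrophages carry in quantity, led the list, followed by the metalloprotease genes Mmp12 (0.67 ± 0.08) and Mmp14 (0.48 ± 0.18). Without pool 1 or without pool 2, 6 of them were higher, with 0 lower without pool 1 and 1 lower without either of the others. Of 9 collagen receptors, 4 were higher and 1 lower. Lair1, an inhibitory receptor of leukocytes, stood at 0.94 ± 0.11, Itga11 at 0.20 ± 0.05 and Itga2 at 0.26 ± 0.16, while Itgb1 was lower (-0.29 ± 0.11). Ddr2 was the other higher receptor. Ddr2 lost its call with any pool left out, Itga11 without pool 1, and Itga2 without pool 2 or pool 3. Of 14 partners of type IV collagen in basement membranes, 6 were higher and 1 lower, with Sparc, the laminin genes Lamc1 (0.33 ± 0.05) and Lama3 (0.28 ± 0.03) among the higher and the laminin gene Lamb3 (-0.52 ± 0.07) the lower. Without pool 1 or without pool 2, 4 of them were higher.

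Markers of the cell types that could supply collagen were read in the same pools. Of 15 stellate cell markers, 8 were higher (53.3%, beside 22.0% of all genes) and 2 lower (13.3%, beside 21.4%). The list means were 0.24 to 0.31 over the pools, and the list median was 0.23. With a pool left out, 7 (without pool 1), 6 (without pool 2) and 7 (without pool 3) were higher. Vim (1.49 ± 0.25), Pdgfrb (0.56 ± 0.09), Colec11 (0.46 ± 0.06) and Acta2 (0.55 ± 0.17), the actin of activated stellate cells, had the smallest p. On the cDNA array Acta2 had a mean of -0.20 ± 0.04, not called. The 7 stellate cell markers measured there had a list median of -0.07, with 2 above 0 and 2 below 0 in every pool, and 0 called. The 2 markers lower on the oligonucleotide array were Hhip and Hand2, and Hand2 was not called without pool 1 or without pool 2. Of 14 markers of sinusoidal endothelium, which makes type IV collagen, 0 were higher and 5 lower (Cdh5, Eng, Flt1, Oit3 and Tek, list means of -0.11 to -0.06). Without pool 1, 2 were lower, without pool 2, 3, and without pool 3, 1 was higher and 3 lower. The shares of all genes called lower in these fits were 12.0%, 14.2% and 18.2%. The cDNA array did not show this direction. There the 6 endothelial markers measured had list means of 0.18, 0.42 and 0.04 in the pools. Of these 6, 3 were above 0 and 2 below 0 in every pool, and 0 were called.

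Bile duct markers (Sox9 and Cftr higher of 8, Krt23 lower) and mesothelial markers (Gpm6a and Wt1 higher of 9, Upk1b lower) had members in both directions, with list means of -0.02 to 0.11 and of 0.00 to 0.07. The shares called higher were 25% and 22.2%, near the 22.0% of all genes, and those called lower 12.5% and 11.1%, beside 21.4%. Gpm6a stood at 0.38 and Upk1b at -0.35. Without pool 1, 1 gene of each was higher, and Krt23 was the 1 lower bile duct gene but not without pool 1 or without pool 3. Without pool 2, 1 bile duct gene was higher, and without pool 3, 1 mesothelial gene. Macrophage markers had 9 of 11 higher (81.8%) and 2 lower (18.2%, Marco and Vsig4), with list means of 1.59 to 1.84. Without pool 1 or without pool 2, 1 macrophage marker was lower. Hepatocyte markers had 0 of 13 higher and 7 lower (53.8%), with list means of -0.44 to -0.32. On the cDNA array no marker of these lists was called. The 10 hepatocyte markers measured there had list means of -0.12, 0.00 and -0.01, with 2 above 0 and 6 below 0 in every pool. Of 6 macrophage markers, 5 were above 0 in every pool and 0 below. Of 3 bile duct markers, 1 was above 0 and 2 (Cftr and Krt19) below 0 in every pool. The 2 mesothelial markers were below 0 in every pool. The part of the marker shifts in the collagen values was not tested. In RNA of whole liver, more cells of a type and more RNA per cell cannot be told apart.

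**Figure D4:**
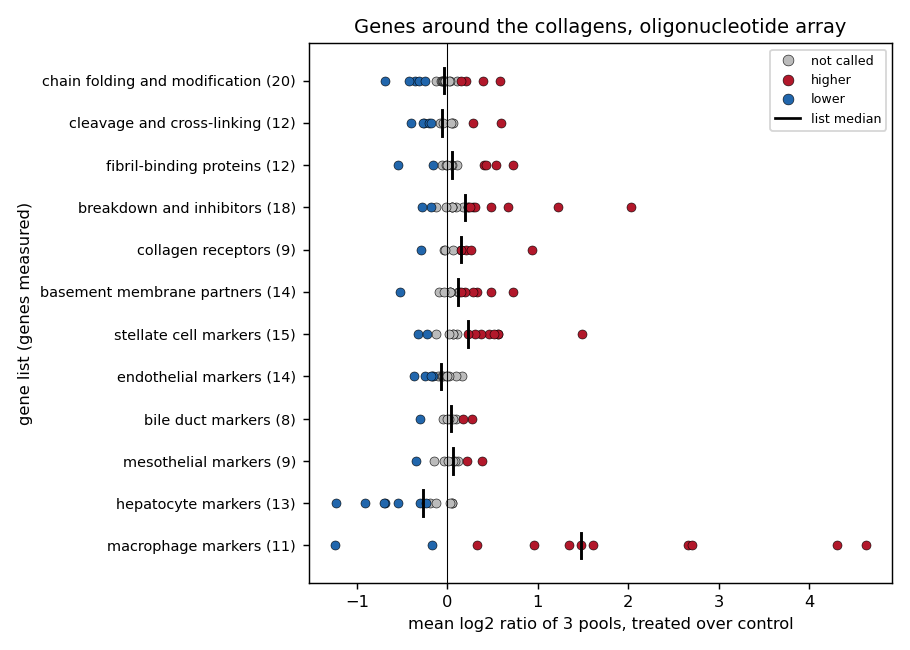
Mean log2 ratio of each gene of 12 lists on the oligonucleotide array. Points are genes, red when called higher, blue when called lower and grey when not called, the black tick is the list's median and the number of genes is in parentheses. Breakdown genes reach 2.03 (Ctss), the folding list runs down to -0.69 (Hspa5), and the macrophage list reaches 4.63.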

How the data were processed

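The authors deposited 1 table per array type with a log ratio for each feature and array, read here as log2 of the treated pool (Cy5) over the control pool (Cy3), per the labels. Base 10 was not used, since the largest absolute value was 6.34 and log10 of the largest 16-bit intensity is 4.82. For background correction, normalization and filters the sources used here give no method. Values of 0 were treated as missing, each array was centred on its median, and features of a gene with values on all 3 arrays were averaged. Centring moved the oligonucleotide arrays by under 0.01 and the cDNA arrays by 0.07, 0.09 and 0.02. Of 22575 oligonucleotide features 18658 named 1 gene, and of 13482 cDNA features 7410 did, and only these entered.

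The mean of the 3 pools was tested against 0 for all genes of an array type with limma 3.58.1 (lmFit, eBayes, R 4.3.3) and Benjamini-Hochberg adjustment, with calls at an adjusted p under 0.05. The control pool counts as 1 sample, so its own spread is left out, p-values measure the spread between pools, and precision is limited by the number of arrays. Alternatives covered values of 0, centring, quantile normalization, feature choice, the prior, a fold minimum, each pool left out and the pool as a block. The tests were checked on simulated data. Python 3.11.15, pandas 2.3.3 and matplotlib 3.10.9 made tables and plots.

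Every collagen matched is reported. Values by pool were given for called members and for Col1a1, Col1a2, Col3a1, Col4a1, Col4a2, Col5a2, Col6a1, Col6a2, Col15a1 and Col18a1 (Col6a3 was also listed but matched no feature), and from other lists up to 4 called genes with the smallest p were named. Further called genes of the lists, the pools of Col5a1 and the cDNA pools of uncalled members were added after their values were seen. The members, classes and lists were chosen with earlier results of these data known. Pool numbers pair the arrays because each RNA was split. Deviations of a pool's 2 arrays from their array type's mean correlated across genes at 0.062, 0.073 and 0.075. Promoters came from RefSeq (GRCm38.p6).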

Additional observations from a re-analysis of the deposited data

Results flagged for a closer look

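Col6a1 gave different log2 ratios on the 2 array types, with an oligonucleotide minus cDNA difference of 1.16 (limma adjusted p = 0.0372), from means of -0.06 and -1.21. With the pool as a block, which follows the split of each RNA over both arrays, neither Col6a1 nor any other gene passed, and Col6a1 did not pass with values of 0 kept. The cause was not tested.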

How the results depend on the processing

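Of 16 collagens called on the oligonucleotide array, 10 lost the call only without the shared prior, among 12 alternatives, and 6 also elsewhere. Without the shared prior, 0 were higher, 0 lower and 0 differed between array types. Calls at 1.2-fold or more left 9 higher and 1 lower, beside 10.9% and 10.4% of all genes. Leaving out 1 pool gave 9 to 12 higher and 1 to 2 lower on the oligonucleotide array. Of all genes there, 11.8% to 18.8% were then higher and 12.0% to 18.2% lower. On averaged arrays it gave 0 to 3 higher and 0 to 1 lower, beside 0% to 4.86% and 0% to 2.85% of all genes. Between array types 0 to 3 collagens differed, beside 0% to 22.3% of all genes. Quantile normalization gave 2 higher and 1 lower on averaged arrays, where more genes in all were called too, as counted in the next paragraph. The pool as a replicate block gave 5 higher and 1 lower over both array types, beside 13.7% and 13.3% of all genes. It gave 0 collagens differing between array types, as did keeping values of 0. The basement membrane mean was 0.12 with type IV alone. With types I, III and V alone, the fibrillar mean was 0.39 and its excess over basement membrane 0.30.

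With 1 pool left out, the sign turned in uncalled genes: Col25a1 ranged from -0.012 to 0.046, Col5a2 from -0.077 to 0.064, Col6a1 from -0.12 to 0.028 and Col9a1 from -0.085 to 0.048 on the oligonucleotide array, and Col12a1 from -0.06 to 0.20 on the cDNA array. For all genes, the averaged arrays gave 240 calls, 514 after quantile normalization, 1267 with the block and 0 with values of 0 kept. The cause was not tested.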

Other observations

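Of the 19 collagen genes on the cDNA array, 6 had no feature with a value in all 3 pools and entered no comparison. Col17a1 stood at 2.16 in pool 1 and 0.41 in pool 3. Col9a3 stood at -3.25 in pool 2 and 3.90 in pool 3, opposite in sign, while its 3 oligonucleotide values lay between 0.15 and 0.29. A Col23a1 feature stood at 1.26 in pool 1 and -0.25 in pool 3, and another at -0.32 in pool 3 alone. Col13a1 (-1.95), Col9a2 (1.41) and Col11a2 (-0.15) had a value in pool 3 alone. A further feature of Col5a2 had a single value of 2.49, in pool 1, where the feature used stood at -0.08.

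Of the 3 cDNA features with a second symbol, 2 list Col5a1 with AI413331, which the RefSeq table gives as a synonym of Col5a1. One stood at 1.67, 2.37 and -0.57 in pools 1, 2 and 3, and the other at 2.17 in pool 2 and 0.70 in pool 3. The remaining feature, listed under Lca5l and Col6a2, stood at 0.47, -1.34 and 0.03.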
